A study of Mus musculus with 2 samples.

Results

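H2BK120ub is histone H2B that carries a single ubiquitin on lysine 120. In mammals RNF20 and RNF40 form the main ligase that places it, and it is known to lie over the bodies of transcribed genes, where it is tied to elongation by RNA polymerase II. Over a long transcribed gene, or several side by side, it can form a broad domain rather than a sharp peak. UBR7 is a PHD-finger protein for which a ligase activity towards the same lysine has been described. The broad domains found both with UBR7 and after its deletion were examined here in the peaks of 2 ChIP-seq libraries of liver primary cells.

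The library labelled WT is given as from wild-type cells and the library labelled UBR7-KO here as from Alb-Cre;UBR7fl/fl cells, in which a Cre recombinase driven by the albumin promoter deletes the floxed UBR7 gene in hepatocytes. The cells of both groups are described as taken from livers of male mice, 8 weeks old, on a C57BL/6 background, whereas the labels speak of conditionally immortalized primary cells grown in culture. How many animals each library stands for was not given in the sources used here. Each genotype had 1 library, so every difference below is a difference between 2 libraries without a replicate check, and no test between genotypes was run. The samples are labelled as mouse, but the positions of the peaks are those of the human build hg19. Of the WT members described below, 397 lay on chromosomes 20, 21 and 22, which a mouse genome does not have. The local background was also higher in WT in general, with a median over segments of 20 Mb of 2.26, against 1.43 in UBR7-KO. Relative to the median of its own list, it differed further between the 2 libraries over a long part of chromosome 8. Over the start of chromosome 5 it differed the other way. It was raised over parts of chromosomes 10, 16 and 17 in both, as described below. Species, origin and genotype of the cells were not checked against the labels, and each difference between WT and UBR7-KO below is one between the libraries so labelled. Genes, transcripts, sequences and markers of liver cell types at these positions were not analysed here, because the annotation at hand is that of a mouse genome.

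A broad peak was a peak longer than 10000 bp. Members were chosen on the autosomes except chromosome 19, as WT broad peaks that overlapped at least 1 UBR7-KO broad peak by 1 bp or more, together with those partners. Of the 6922 WT broad peaks, 2727 met the rule, which is 39.4% (95% Wilson interval 38.3 to 40.6). Of the 4182 UBR7-KO broad peaks, 2984 were partners, which is 71.4% (95% Wilson interval 70.0 to 72.7). The intervals allow for counting error alone, since neighbouring peaks depend on each other. The members were a small part of the 101866 WT and 127444 UBR7-KO peaks of the series. On the chromosomes used they made up 2.82% of the peaks and 21.9% of the covered length in WT, and 2.46% and 18.6% in UBR7-KO. Since length and overlap chose the members, their number and the presence of a partner are a description and not a finding.

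The remaining 4195 WT broad peaks fell into 2 kinds. Over 3138 of them, 45.3% of all WT broad peaks, the UBR7-KO list held only shorter peaks, and over 1057, 15.3% of all, it held no peak. Of all UBR7-KO broad peaks, 939 (22.5%) met only shorter WT peaks and 259 (6.19%) met none. For comparison, 39.9% of WT peaks of any length and 34.8% of UBR7-KO peaks of any length overlapped the other list on these chromosomes.

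The length limit cut through a continuous range. The shortest WT members spanned 10009 bp on chromosome 14 (104780366 to 104790374) and 10010 bp on chromosome 20 (49410626 to 49420635). The longest WT peaks that stayed outside, on chromosomes 3 (126765402 to 126775401) and 4 (8724871 to 8734870), spanned 10000 bp each. The shortest UBR7-KO members spanned 10002 bp (chromosome 1, 40136491 to 40146492) and 10005 bp (chromosome 1, 54589561 to 54599565). The longest outside spanned 10000 bp on chromosome 2 (106172211 to 106182210) and 9997 bp on chromosome 17 (48033174 to 48043170).

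Longer peaks were kept more often, as the plot of the share kept by length shows. Of the WT peaks of 10000 to 15000 bp, 770 of 3294 had a broad partner (23.4%). The share was 57.2% (966 of 1688) at 20000 to 40000 bp and 88.8% (374 of 421) at 40000 to 80000 bp. Above 80000 bp, 60 of 61 WT peaks were kept. The UBR7-KO list gave 59.4% (1407 of 2368) in its shortest class, and the 103 peaks of 40000 to 80000 bp and the 8 longer ones all had a WT broad partner. A longer peak has more bases in which to meet a partner, so this order is also a property of the rule.

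**Figure D1:**
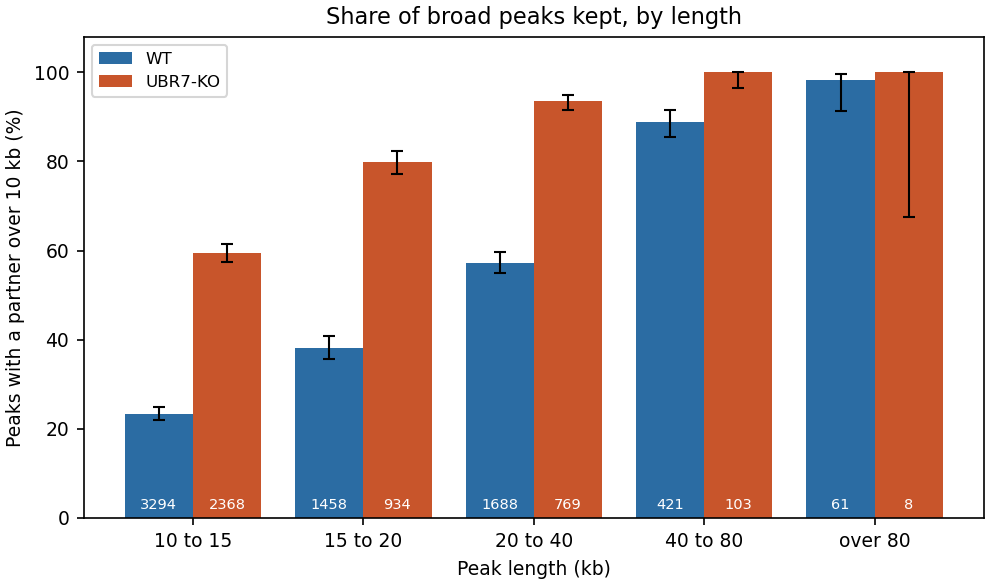
Share of broad peaks with a partner over 10 kb in the other list (y axis, %), by peak length (x axis, kb). Blue bars are WT and orange bars UBR7-KO, error bars are 95% Wilson intervals, and the number of peaks stands at the foot of each bar. The WT share runs from 23.4% to 98.4%, and the UBR7-KO bar is the taller in every class.

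Peaks that overlapped in a chain were joined into 2350 domains. Only broad peaks were counted in a domain, although 1292 of the 2727 WT members carried a shorter UBR7-KO peak as well. By this count most were simple: 1739 domains (74.0%) held 1 broad peak of each list. In 284 domains (12.1%) 1 WT peak met several UBR7-KO broad peaks, in 162 (6.89%) several WT peaks met 1 UBR7-KO peak, and 165 (7.02%) held several of each. Seen from the single peak, 2230 WT members had 1 partner, 407 had 2 and 90 had at least 3, with a maximum of 9. Of the UBR7-KO members, 361 spanned at least 2 WT members, with a maximum of 4. Partitioning into more pieces was thus more frequent in the UBR7-KO list but was found in both.

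WT peaks covered 72.7 Mb of these domains and UBR7-KO peaks 55.1 Mb, a ratio of 0.758. Over all peaks of the same chromosomes that were not members, the ratio was 0.932. These include the shorter peaks of each list that overlap a member of the other. With such shorter peaks counted at the domains in both lists, an alternative chosen after the values were seen, the ratio at the domains was 0.831. The shared length was 47.0 Mb. This was 64.6% of the WT length, 85.3% of the UBR7-KO length and 58.1% of the length covered by either. The UBR7-KO domains were therefore mostly contained in the WT domains, whereas 25.7 Mb of WT length had no UBR7-KO broad peak over it. The ratio lay below 1 under each alternative tried, from 0.563 with peaks of a fold enrichment of at least 2.5 to 0.877 with UBR7-KO peaks of any length. The first of these settings left 31 domains and drops whole peaks without redrawing edges. Its limit was reached by 35.5% of WT members but 1.47% of UBR7-KO members, so that value is no check of the ratio.

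Domain by domain, the WT length ranged from 10009 to 285594 bp with a median of 23766.5 bp (quartiles 15425.5 and 37171 bp). The UBR7-KO length ranged from 10005 to 247967 bp with a median of 17115.5 bp (quartiles 12702 and 26213 bp). The plot of covered lengths shows that the 2 ranges overlapped over nearly their whole extent. WT covered the greater length in 1674 domains (71.2%). Over regions joined in the same way from peaks of any length, the background for this count, WT covered the greater length in 57.4%. Those regions count shorter peaks as well, whereas a domain counts broad peaks alone. Shorter peaks that lie on a member of the other list are thus left out of the domains. This limit holds for every comparison below with regions of any length. In the 1739 simple domains the WT broad peak was the longer in 68.4%. Of the regions that held exactly 1 peak of any length in each list, it was 54.4%. The ratio of UBR7-KO to WT length per domain had a median of 0.815 and quartiles of 0.591 and 1.03.

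**Figure D2:**
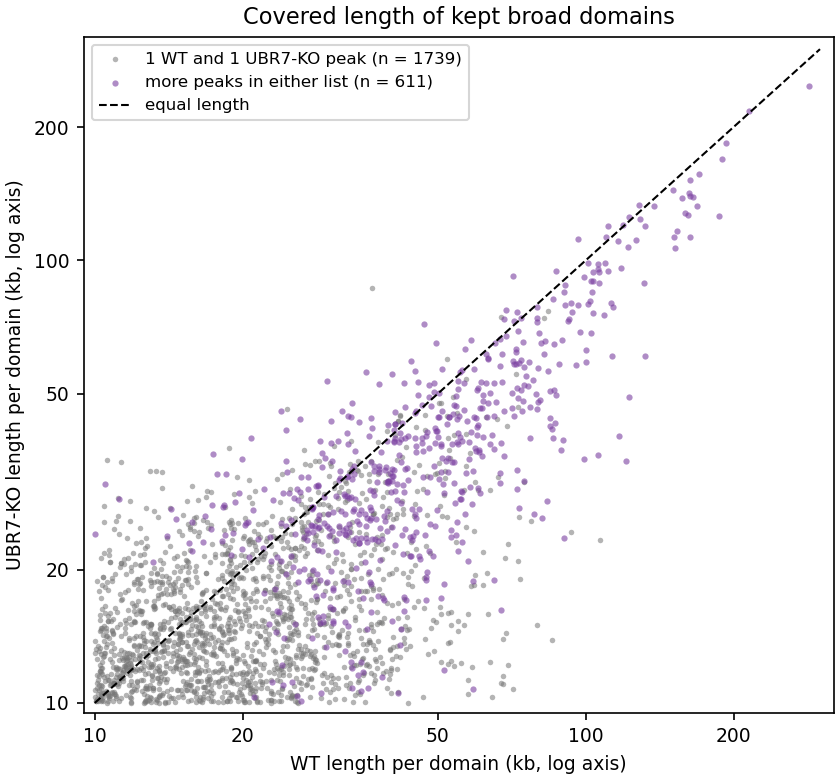
Covered length of each of the 2350 kept domains in WT (x axis, kb, log axis) and UBR7-KO (y axis, kb, log axis). Grey points are domains of 1 WT and 1 UBR7-KO broad peak, purple points hold more broad peaks in either list, and the dashed line marks equal length. WT covered more in 71.2% of domains, and points on both sides of the line are found up to 215 kb.

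The shared length per domain had a median of 14077.5 bp (quartiles 10748 and 22285.5 bp). It made up a median of 60.3% of the union of both lists (quartiles 42.4% and 76.8%), against 42.9% over regions of peaks of any length. The median was 68.8% of the WT length and 93.2% of the UBR7-KO length. At least 50% of the union was shared in 1516 domains (64.5%), and at least 90% in 210 (8.94%). In contrast, 119 domains (5.06%) shared under 20% of their union, 96 shared under 5000 bp and 14 under 1000 bp. The weakest contact was 68 bp, on chromosome 2 (61368861 to 61390763), where a WT peak of 10365 bp touched a UBR7-KO peak of 11606 bp. The rule counts such contacts as kept, although they are neighbouring peaks that meet at their ends. The 2 domains that shared the least of their union were picked after their values were seen. They were this contact, at 0.310% of its union, and a domain on chromosome 20 (60805650 to 60839941), where a WT peak of 22631 bp and a UBR7-KO peak of 11751 bp shared 90 bp, 0.262% of the union. In the latter, 1 shorter UBR7-KO peak also covered 2433 bp of the WT peak.

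Next, the WT length without a broad partner was traced. Most of it lay beyond the outer UBR7-KO edges, with 22.6 Mb of the 25.7 Mb (87.9%). The stretches between UBR7-KO partners held 3.11 Mb (12.1%). Shorter UBR7-KO peaks, each 10000 bp or less, covered 7.58 Mb of the WT-only length (29.5%), and 1292 of the 2727 WT members carried such a shorter peak beside a broad partner. This left 18.1 Mb, or 24.9% of the WT length of members, under no UBR7-KO peak. In the other direction, 8.12 Mb of UBR7-KO length lay outside WT members, and shorter WT peaks covered 37.7% of it.

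Where a WT peak carried several broad partners, the gaps between them were mostly short. The 634 gaps had a median of 1793 bp, with quartiles of 1284 and 6495 bp and a maximum of 44102 bp. The 377 gaps between WT members on a single UBR7-KO peak had a median of 1553 bp and a maximum of 19663 bp. No peaks of the WT list lay closer together than 1169 bp, and none of the UBR7-KO list closer than 1097 bp. The lower quartile of the gaps between partners was thus close to the smallest distance in the list.

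The edges of the domains were then compared. On the left, the UBR7-KO outer edge lay inward of the WT edge in 1511 of 2350 domains (64.3%), and on the right in 1487 (63.3%). The median shift was 1233 bp inward on the left (quartiles of the inward shift -928.75 and 7301 bp) and 1090 bp inward on the right, where UBR7-KO minus WT had quartiles of -6855.25 and 1004.75 bp. Left and right edges thus gave like values. Over the 4700 edges together the median inward shift was 1159.5 bp, and 63.8% of edges were inward, against 54.2% over regions of peaks of any length, where the median was 51 bp. Chromosome by chromosome, the median inward shift was above 0 on 21 of 21 chromosomes, from 487.5 bp on chromosome 8 to 2861.5 bp on chromosome 15. The size of the shift depended on which peaks were counted. With peaks of any length that overlap a member of the other list counted in both lists, an alternative chosen after the values were seen, the median inward shift was 267.5 bp and 60.5% of edges were inward. With such shorter peaks counted in UBR7-KO alone, which can move its edges only outward, the median was 46.5 bp and 52.1% of edges were inward.

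Both UBR7-KO edges lay within the WT edges in 902 domains (38.4%), against 29.4% over regions of any length. The reverse nesting was seen in 251 domains (10.7%). In 588 domains the UBR7-KO side was displaced to the left and in 609 to the right. Shifts over 10000 bp inward were found at either end or both in 746 domains (31.7%), and shifts of that size outward in 201 (8.55%).

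A part of the edges coincided. Of the 4700 edges, 259 (5.51%) differed by at most 100 bp, 785 (16.7%) by at most 500 bp and 3 were at the same base. Over regions of any length, most of which are far shorter, 42.8% of edges lay within 500 bp. Both edges lay within 500 bp in 98 domains (4.17%), exactly 1 edge in 589 (25.1%) and none in 1663 (70.8%). The nearer edge of a domain differed by a median of 1609.5 bp (quartiles 370.25 and 4437.5 bp) and the farther edge by a median of 7761 bp (quartiles 3699 and 12920 bp). A difference between the nearer and the farther edge is built into this order. In the simple domains the inward shifts at the 2 ends had a Spearman's rho of -0.22 across 1739 domains of the same 2 libraries, which are not independent replicates.

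**Figure D3:**
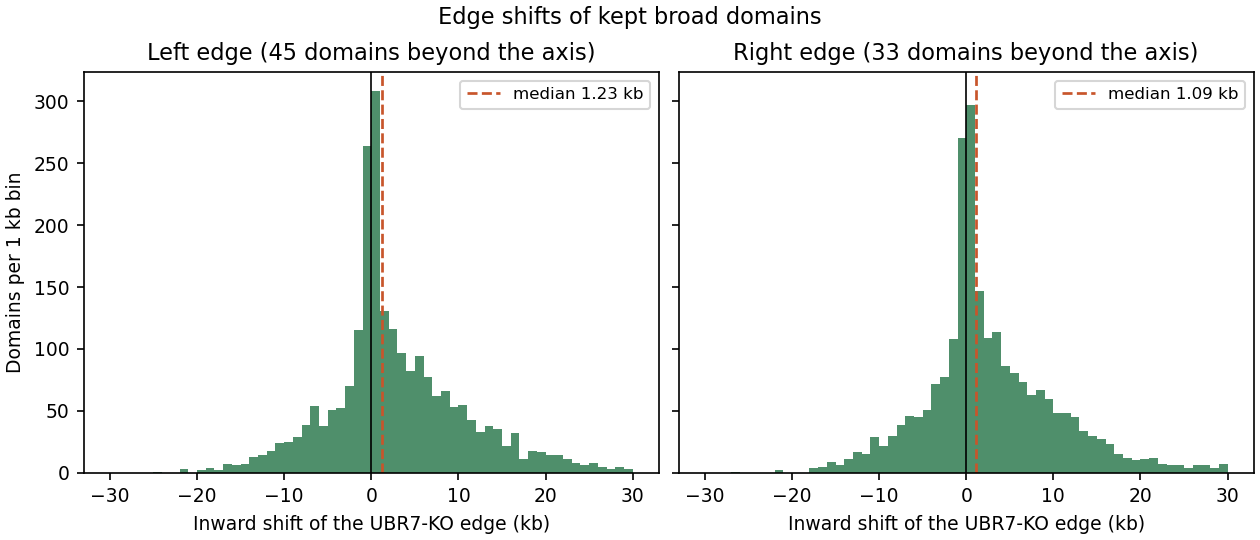
Shift of the UBR7-KO outer edge relative to the WT outer edge (x axis, kb, positive is inward) against the number of domains per 1 kb bin (y axis), for the left and the right edge of the 2350 domains. The dashed lines mark the medians of 1.23 and 1.09 kb, and both histograms peak at 0 with a longer arm on the inward side.

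The 10 domains with the largest shared length held 1.66 Mb, or 3.54% of the shared total, and were close to complete in both libraries. They shared 80.04% to 96.6% of their union. The first, on chromosome 17 (79243343 to 79530269), was covered over 285594 bp by 2 WT peaks and over 247967 bp by 8 UBR7-KO peaks, with 246634 bp in common. It contains the longest WT peak of the list, 230695 bp, on which 6 UBR7-KO broad peaks lay, the longest of them 104145 bp. By broad peaks alone, its left edge was 21140 bp inward in UBR7-KO and its right edge 1912 bp. A UBR7-KO peak of 9958 bp, just under the length limit, lay on the WT peak to the left. It began at -143.026 kb from the middle of the domain, and the WT peak at -143.463 kb.

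The second domain, on chromosome 16 (88796534 to 89016544), was the most complete of the 10. A WT peak of 214912 bp met 3 UBR7-KO peaks that covered 217538 bp, and 212439 bp were shared. By broad peaks alone, the left edges differed by 45 bp, and the UBR7-KO side reached 5099 bp farther on the right. A shorter WT peak lay across that right end and reached 110.156 kb from the middle, against 110.005 kb for the UBR7-KO broad peak. Of the 10 domains, this was the only 1 in which UBR7-KO broad peaks covered more than WT broad peaks.

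The third lay on chromosome 17 (78991151 to 79188802), with 4 peaks in each list and 180170 bp in common. The fourth, on chromosome 16 (88448141 to 88638010), was a WT peak of 189870 bp over 7 UBR7-KO peaks that all lay inside it and covered 168979 bp. The fifth, on chromosome 20 (61972535 to 62142940), was a WT peak of 170406 bp over 9 UBR7-KO peaks, again all inside, with 157006 bp. Both showed the same layout, an almost unbroken WT stretch set against a row of UBR7-KO pieces whose left end differed from the WT end by 384 and 157 bp.

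The sixth domain, on chromosome 9 (138957834 to 139128567), shared 144210 bp between 3 peaks of each list. The seventh, on chromosome 1 (2354901 to 2505204), shared 143955 bp, 95.8% of its union, with edges 1148 and 477 bp apart. The eighth, also on chromosome 1 (1351276 to 1515525), shared 138433 bp between 1 WT and 6 UBR7-KO peaks. The ninth, on chromosome 9 (139828296 to 139986343), shared 136736 bp, and the tenth, on chromosome 11 (743658 to 913029), shared 135568 bp. Together the 10 domains held 19 WT and 55 UBR7-KO peaks, with more UBR7-KO than WT peaks in 8 and equal numbers in 2. By broad peaks alone, 7 of their 20 edges lay within 500 bp, 15 were inward in UBR7-KO and 5 outward. Shorter peaks lay across some of these edges in either list, so the counts hold for broad peaks only. On chromosome 20 a shorter UBR7-KO peak ended at 85.67 kb from the middle, past the WT edge at 85.20 kb. On chromosome 9 (138957834 to 139128567) a shorter WT peak ended at 92.41 kb, past the UBR7-KO edge at 85.37 kb. The 10 domains lay at most 2.35 Mb from a chromosome end.

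**Figure D4:**
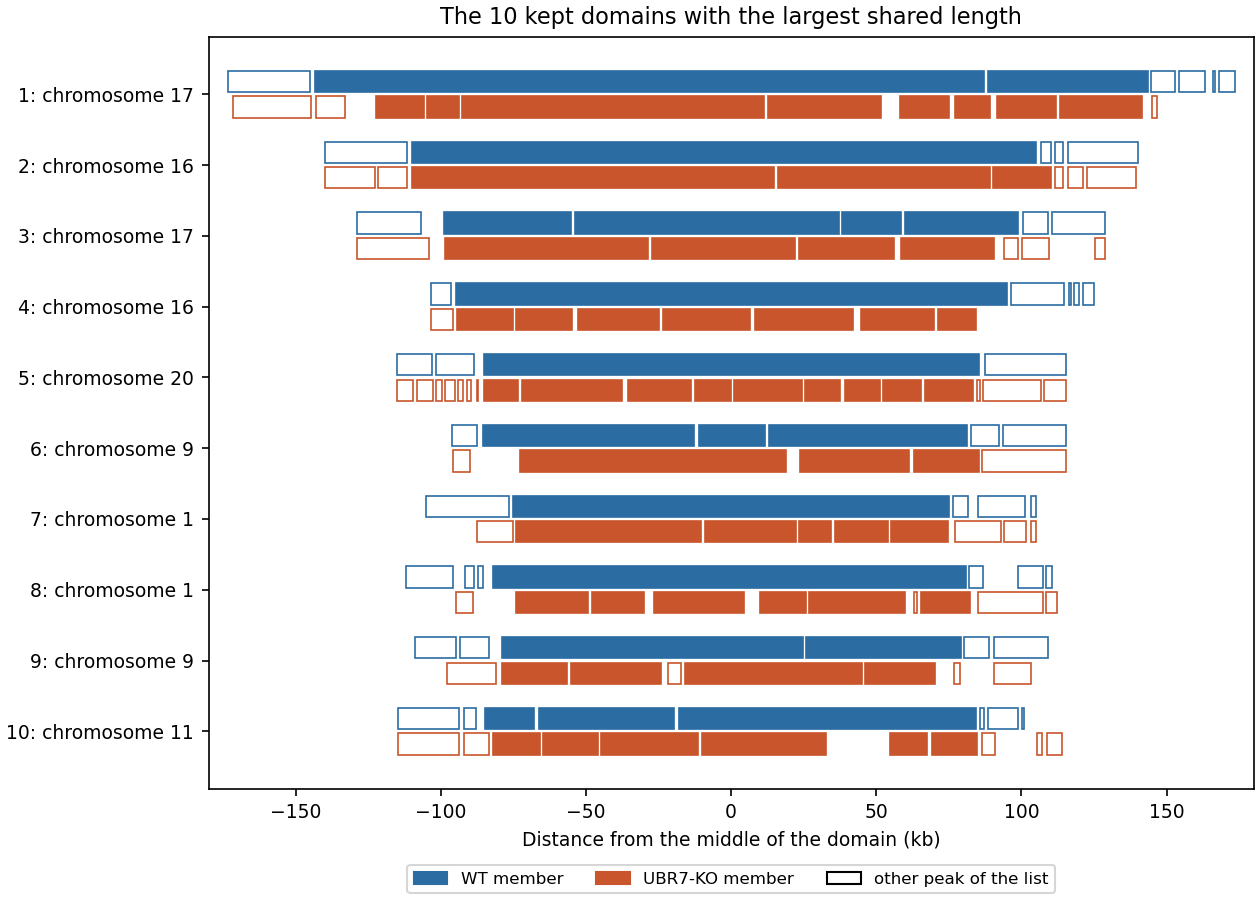
Peaks of WT (blue) and UBR7-KO (orange) over the 10 kept domains with the largest shared length, by distance from the middle of each domain (x axis, kb). Filled bars are members and open bars are other peaks of the list, drawn up to 30 kb beyond the domain. The domains hold 19 WT and 55 UBR7-KO peaks, with more UBR7-KO than WT peaks in 8 of the 10 and 3 or 4 in each list in the sixth and the third.

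The longest UBR7-KO member spanned 125009 bp on chromosome 16 (85574562 to 85699570). It met 3 WT members, the longest of them 71752 bp, and shared 118248 bp with them (94.6% of its length). Here the order of pieces was turned around, with the unbroken stretch in UBR7-KO. A single UBR7-KO peak of 86486 bp likewise spanned a WT peak of 36711 bp on chromosome 16 (290596 to 377081), which was the right edge farthest outward, at 33016 bp. The largest ratios of UBR7-KO to WT length, chosen after their values were seen, were found for a WT peak of 10580 bp inside a UBR7-KO peak of 35330 bp on chromosome 10 (98841027 to 98876356) and for a WT peak of 11298 bp inside one of 35089 bp on chromosome 1 (204969398 to 205004486).

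The domains that overlapped most completely were of ordinary size. On chromosome 1 (1549947 to 1567978) the WT peak spanned 17985 bp and the UBR7-KO peak 18010 bp, with 99.6% of the union shared and edges 47 and 22 bp apart. On chromosome 17 (77701882 to 77722654) the lengths were 20692 and 20773 bp, and on chromosome 20 (62729391 to 62748618) they were 19170 and 19208 bp. These 3 domains each held a single peak per list, and neither edge differed by more than 72 bp.

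At the other end of the range, some long WT peaks had a UBR7-KO broad partner over only a small part of their length. On chromosome 17 (80744226 to 80851371) a WT peak of 107146 bp met a UBR7-KO broad peak of 23318 bp, and the left edge was 65094 bp inward. A further 8 shorter UBR7-KO peaks covered 36808 bp of the same WT peak. On chromosome 1 (31314151 to 31393625) a WT peak of 79475 bp met a UBR7-KO peak of 15032 bp at its right end, where the edges differed by 36 bp, and 10 shorter UBR7-KO peaks covered 23702 bp of the rest. The next largest inward shift on the left, 62940 bp, was on chromosome 17 (4395507 to 4470654), where 6633 bp were shared. In the first 2 of these domains many short UBR7-KO peaks thus lay over the WT length that had no broad partner.

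The right edges farthest inward were on chromosome 3 (50373353 to 50498246, 63763 bp), chromosome 17 (78135380 to 78205008, 55254 bp) and chromosome 16 (4590826 to 4721961, 54277 bp). Shorter UBR7-KO peaks covered 9425, 14821 and 6456 bp of the WT members of these 3 domains, in the same order. The last of the 3 also had the left edge farthest outward, 47298 bp. There a WT peak of 83838 bp and a UBR7-KO peak of 76859 bp were of like length but offset, and shared 29561 bp. The other left edges farthest outward were on chromosome 16 (28278316 to 28338687, 24122 bp) and chromosome 20 (60268946 to 60316958, 21864 bp). On the right, after chromosome 16, they were on chromosome 10 (104152083 to 104214488, 26703 bp) and chromosome 22 (50204977 to 50247109, 21188 bp). The domain on chromosome 22 was again a contact of broad peaks at their ends, with 471 bp shared. There 3 shorter UBR7-KO peaks, not counted as members, covered 16472 bp of the WT peak of 20945 bp.

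The location of the domains was uneven, as was that of all broad peaks. Chromosomes 16, 17, 20, 21 and 22 held 761 of the 2350 domains (32.4%) and 36.7% of the shared length on 11.8% of the sequence. They also held 28.2% of all WT broad peaks and 31.8% of all UBR7-KO broad peaks. The shared length reached 7.06% of chromosome 17, 7.02% of chromosome 22 and 4.96% of chromosome 16, compared with 0.331% of chromosome 6 and 0.349% of chromosome 13. The ratio of UBR7-KO to WT length, in contrast, was under 1 on 21 of 21 chromosomes, within a range of 0.648 on chromosome 3 to 0.851 on chromosome 20. Chromosome 17 (8.997 Mb in WT and 6.63 Mb in UBR7-KO) and chromosome 22 (5.76 and 4.23 Mb) had ratios of 0.737 and 0.735, close to that of all domains.

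**Figure D5:**
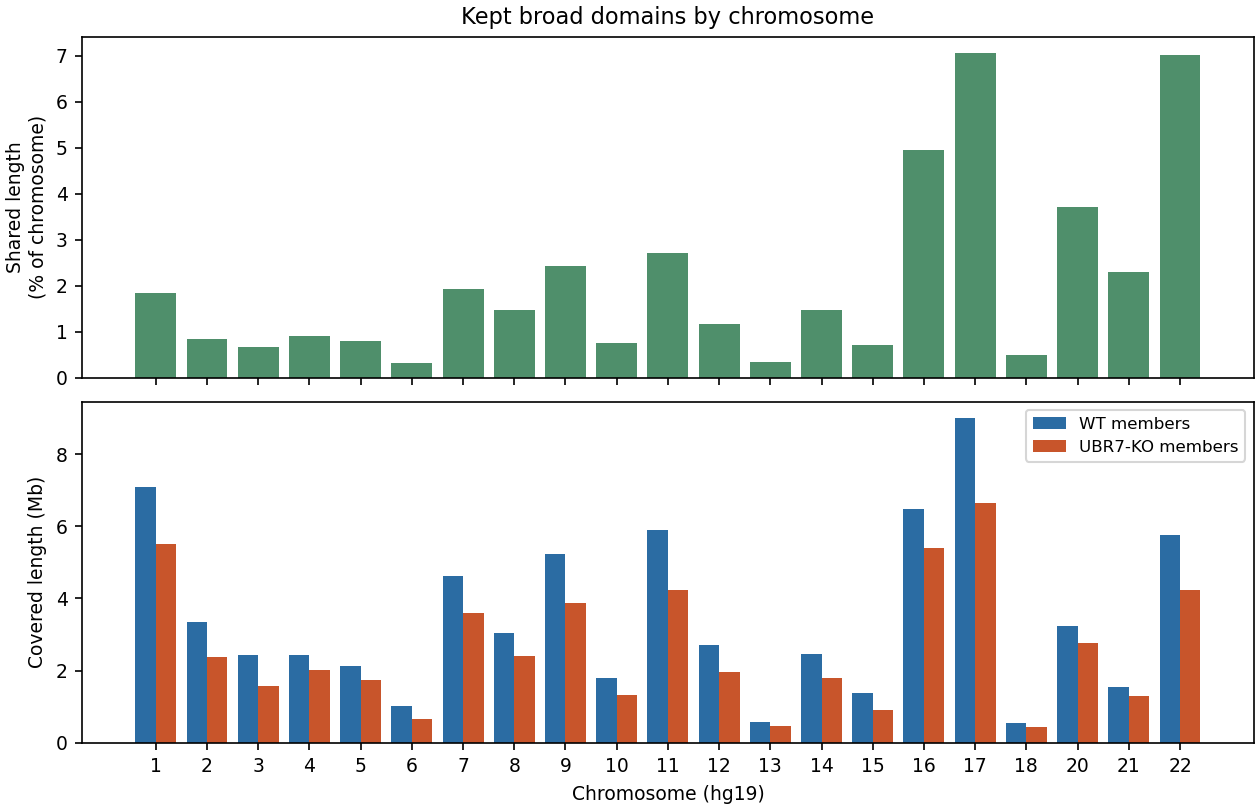
Kept domains by chromosome (x axis, hg19, chromosome 19 left out). The upper bars give the shared length as % of the chromosome, and the lower bars give the covered length of WT (blue) and UBR7-KO (orange) members in Mb. Shared length is highest on chromosomes 17 and 22 (7.06% and 7.02%), and the WT bar is the taller on all 21 chromosomes.

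Domains also gathered towards chromosome ends. The outer 5 Mb at each end, 7.44% of the sequence, held 914 domains (38.9%) and 49.7% of the shared length. By the same count they held 21.8% of WT broad peaks that were not kept, 10.8% of all WT peaks and 9.43% of all UBR7-KO peaks. Domains in these ends shared a median of 16224.5 bp and 66.9% of their union, against 13173 bp and 54.99% elsewhere, and the ratio of UBR7-KO to WT length was 0.806 against 0.719. The outer 2 Mb held 442 domains (18.8%). These are descriptions of 1 pair of libraries, and peaks in the same stretch are not independent.

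Along the chromosomes the domains came in runs. The median distance between neighbours was 69821 bp, and 1020 of 2329 distances (43.8%) were at most 50 kb. Domains linked by such distances formed 433 runs of at least 2, which held 1453 domains (61.8%). The run with the largest shared length lay on chromosome 9 (139217363 to 140397874), with 19 domains and 722.1 kb shared over 1181 kb. It was followed by a run of 18 domains on chromosome 1 (2699596 to 3845118, 709.0 kb shared) and a run of 11 on chromosome 16 (88448141 to 89348645, 684.6 kb shared), which contains the second and the fourth of the largest domains. Of 2837 windows of 1 Mb, 76 (2.68%) held 50% of the shared length and 2190 (77.2%) held none. The fullest window, on chromosome 17 (79000001 to 80000000), was covered by shared length over 63.1%, and the 15 fullest were all within 5 Mb of a chromosome end.

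Pileup, the height of stacked fragments given by the peak caller, and fold enrichment, its ratio to the local background of the same library, were described within each list only, since they depend on depth. How many reads each library holds is unknown. WT members had a median pileup of 7.98 and a median fold enrichment of 2.41, at the 83.4th and 76.5th percentile of WT peaks on these chromosomes. WT broad peaks that were not kept had medians of 7.16 and 2.26. UBR7-KO members had a median pileup of 4.66 and a median fold enrichment of 2.13, at the 62.4th and 43.9th percentile of their list, against 4.46 and 2.10 for UBR7-KO broad peaks that were not kept. Of the WT members 968 (35.5%) had a fold enrichment of 2.5 or more, compared with 16.9% of all WT peaks and 12.7% of WT broad peaks that were not kept. Of the UBR7-KO members it was 44 (1.47%), compared with 9.89% of all UBR7-KO peaks and 12 of 1198 broad peaks that were not kept. The recovered background at members was high in both lists, with its median at the 79.1th percentile in WT and the 73.4th in UBR7-KO. On the plain ratio of pileup to background the member median stood at the 69.8th percentile in WT and the 28.6th in UBR7-KO. By either measure of enrichment the members thus stood above the middle of the WT list and below that of the UBR7-KO list.

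The lowest fold enrichment in each list was 2.0. The caller adds 1 to pileup and background, so at the median background recovered at members, 2.69 in WT and 1.64 in UBR7-KO, this limit equals a plain ratio of pileup to background of 2.37 in WT and 2.61 in UBR7-KO. The limit is thus the stricter for the UBR7-KO list, and the part of this and of depth in the shorter UBR7-KO domains was not tested. When peaks of both lists had to reach a pileup 3 times their background, 379 domains were kept and the ratio of covered lengths was 0.589. That setting also drops whole peaks and falls unequally. The upper quartile of the plain ratio was 3.15 at WT members and 2.98 at UBR7-KO members.

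Agreement in position rose with the WT fold enrichment. Domains were put into 4 classes of nearly equal number by WT fold enrichment. From the lowest class (2.003 to 2.27) to the highest (2.57 to 3.20) the median share of the union in common was 52.8%, 53.3%, 60.7% and 71.1%. The classes also differed in length, with a median WT length of 17420.5 bp in the lowest and 29393.5 bp in the highest. In the simple domains this share had a Spearman's rho of 0.23 with the WT and 0.12 with the UBR7-KO fold enrichment. The covered length did not follow the same order, with ratios of UBR7-KO to WT of 0.812, 0.693, 0.713 and 0.811 from the lowest to the highest class. Across the 1739 simple domains, which share both libraries and their depth, the WT and UBR7-KO values had a Spearman's rho of 0.31 for length, 0.26 for fold enrichment and 0.51 for pileup. The recovered background alone had the same rho as the pileup, 0.51.

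The members with the highest fold enrichment in WT were on chromosome 17 (79128240 to 79148425, 3.21), chromosome 11 (1454437 to 1495441, 3.20) and chromosome 2 (242749818 to 242760550, 3.19). Their first UBR7-KO partners had fold enrichments of 2.20, 2.26 and 2.46. In UBR7-KO they were on chromosome 8 (145549617 to 145572678, 3.32), chromosome 1 (2612524 to 2632054, 3.14) and chromosome 17 (1956740 to 1969453, 3.12), and their WT partners had 2.63, 2.37 and 2.35. The highest values of a list were thus found at different domains in the other list.

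For pileup, in contrast, a domain on chromosome 1 led both lists, with a pileup of 19.1 in WT (16943618 to 16964240) and 11.5 in UBR7-KO (16947345 to 16961876). A nearby WT member (17015629 to 17048148, pileup 14.8) ranked second in WT, and a UBR7-KO peak inside it (17034124 to 17047929, pileup 9.13) ranked the third in UBR7-KO. The third in WT was a member on chromosome 10 (46960187 to 46976645, pileup 14.5), and the second in UBR7-KO lay on chromosome 17 (78952347 to 78985831, pileup 9.65). At the first of them the WT peak had a fold enrichment of 2.56 over a background of 6.85, and the UBR7-KO peak 2.10 over 4.98, so that the background was high as well.

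The background at the domains differed by chromosome, and not always alike in the 2 libraries. On 19 chromosomes the median background at WT members was 2.47 to 2.82, and at UBR7-KO members 1.46 to 1.74. On chromosome 17 it was 3.66 in WT and 2.13 in UBR7-KO, raised in both. On chromosome 8 it was 3.64 in WT, but 1.75 in UBR7-KO, close to the range of the other chromosomes. The ratio of WT to UBR7-KO background was 2.08 on chromosome 8, against 1.53 to 1.74 on the 19 chromosomes and 1.72 on chromosome 17.

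The raised background was limited to parts of these chromosomes. On chromosome 17 the 80 WT members of the first 20 Mb had a median background of 2.67, and the 122 members between 60 and 80 Mb had 3.99. The UBR7-KO members of the same segments had 1.65 and 2.28. On chromosome 16 the WT median changed from 2.68 in the first 20 Mb to 3.89 beyond 80 Mb, and the UBR7-KO median from 1.68 to 2.41. On chromosome 8 the 68 WT members beyond 140 Mb had 3.88, compared with 2.72 at 20 to 40 Mb, whereas the UBR7-KO members had 1.77 and 1.89. The first 4 of the 10 largest domains lay in the raised parts of chromosomes 16 and 17, where the WT pileup averaged 13.2 to 13.3.

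The domains in segments of raised background (chromosome 17 from 40 Mb, 16 from 80 Mb, 10 from 100 Mb and 8 from 60 Mb, chosen after the values were seen) numbered 295 and held 16.9% of the shared length. Their ratio of UBR7-KO to WT length was 0.764, compared with 0.757 for the 2055 domains elsewhere, and their median inward shift was 1442 bp, compared with 1138.5 bp. On chromosome 8 from 60 Mb, where the WT background alone was raised at members, the 63 domains had a ratio of 0.785. They lay beyond 120 Mb, and 68 of their 71 WT peaks beyond 140 Mb. The ratio of covered lengths was as low without these segments, and what raises the background was not tested.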

How the data were processed

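H2BK120ub ChIP-seq peaks of 1 WT and 1 UBR7-KO library were analysed, grouped by the genotype in the labels. By the study's methods, the authors aligned reads with BWA aln (0.7.5a) to hg19 and called peaks in each library with MACS 2.0 under an unstated q-value limit (a list of repeated peaks is also described, and whether the deposited lists are of that kind is not stated), while the submitters' processing notes name Bowtie 1.1.2. The use of a control library in peak calling and the mode of the caller are not given in the sources used here. The deposited pileup is a signal, and the deposited fold enrichment a ratio, both from the authors' peak caller. The background was recovered from them as MACS defines the fold enrichment, (pileup + 1) / (background + 1).

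From the UBR7-KO list, 6 blank rows were removed. Overlaps, domains and edges were computed with Python 3.11.15 (numpy 2.4.6, pandas 2.3.3, scipy 1.17.1) and tested on simulated data of 3000 peaks, where all 1804 built domains were found, as by bedtools 2.31.1. No simulated peak had more than 1 partner, so the joining of several peaks into a domain was not tested there. Chromosome lengths came from GenomeInfoDb 1.38.1 (R 4.3.3). Positions count from 1, both ends included.

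The members, lists and named regions were chosen with earlier results of these data known. Named domains follow a rule on shared length, length, fold enrichment, pileup, share of the union, edge shift and distance to the length limit, with additions named in the text. Planned work on genes and sequences was left out, since the gene table at hand is of a mouse genome. Alternatives covered the length limit, overlap, thresholds, merging, chromosome 19, partners of any length and segments of raised background.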

Additional observations from a re-analysis of the deposited data

How the results depend on the processing

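Of 50 values computed under alternatives, 24 stayed within 1.5 times the reported value (for the share of WT broad peaks kept, within its 95% Wilson interval) and 26 moved further, with none reversed. The ratio of covered lengths did not move under any by this limit, which is wide for a ratio, and its values ran from 0.563 to 0.877. The limits on fold enrichment and on pileup over background drop whole peaks unequally in the 2 lists, so their ratios are no check. The causes of these moves were not tested, beyond those that a setting brings by its construction. A length limit of 5000 bp gave 6218 domains, 44.5% of WT peaks kept, 79.4 Mb shared and a median inward shift of 533.5 bp. At 20000 bp these were 561, 28.9%, 18.2 Mb and 2672.5 bp. An overlap of 50% of both peaks gave 1556 domains, 22.5% kept, 26.6 Mb and 403.5 bp, and 50% of the shorter peak gave 34.6% kept. A fold enrichment of at least 2.5 left 31 domains, 2.2% kept and 0.593 Mb. A pileup 3 times the background or more left 379, 21.2%, 7.32 Mb and 1930 bp. Merging peaks within 5000 bp gave 3744 domains, 49.8% kept and 109.1 Mb. With chromosome 19 included, 41.4% were kept. Outer edges of UBR7-KO peaks of any length gave an inward shift of 46.5 bp, and those of peaks of any length in both lists, chosen after seeing the data, 267.5 bp. Leaving out the segments of raised background, an alternative chosen after seeing the data, moved no value beyond the limits. Settings that rest on genes or on the direction of transcription were not run, as the annotation at hand is of a mouse genome. No paired analysis was possible because there is a single library of either genotype, which also left no replicate to leave out. Without replicates or read numbers, depth and genotype cannot be told apart.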

Other observations

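The background recovered from peaks of 10000 bp or less, none of them members, was set beside that of the members in segments of 20 Mb that held at least 100 such peaks in each list (143 segments). Over 134 segments the median background was 1.91 to 2.76 in WT and 1.24 to 1.72 in UBR7-KO. It exceeded 1.3 times the median of all segments (2.26 in WT and 1.43 in UBR7-KO) in both lists in 5 segments, in WT alone in 4 and in UBR7-KO alone in 0. Differences below this limit were found in the other direction. On chromosome 5 from 0 to 20 Mb the background was 0.898 times the median in WT and 1.20 times in UBR7-KO. From 20 to 40 Mb it was 0.893 and 1.18 times. On chromosome 8 from 20 to 40 Mb it was 1.01 and 1.20 times.

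The 5 segments raised in both lists lay on chromosome 10 from 100 Mb, chromosome 16 from 80 Mb and chromosome 17 from 40 to 80 Mb. On chromosome 16 from 80 Mb the median was 3.61 in WT and 2.29 in UBR7-KO, 1.60 times the median of each list. On chromosome 17 from 60 to 80 Mb it was 3.69 and 2.24, which is 1.63 and 1.56 times the median. On chromosome 10 from 100 to 120 Mb it was 3.45 and 2.23.

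The 4 segments raised in WT alone were the whole of chromosome 8 from 80 Mb to its end. Between 80 and 100 Mb the WT background was 3.27, or 1.45 times the median of its list, while the UBR7-KO background was 1.45, or 1.01 times the median. Between 120 and 140 Mb the values were 3.23 and 1.504. At these shorter peaks the 2 libraries thus differed in background, relative to the median of each list, over a chromosome part more than 60 Mb long. Kept domains bear on its far end alone, since none lay between 60 and 120 Mb, 3 WT members lay between 120 and 140 Mb and 68 beyond. What sets these levels was not tested.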
